A study of Homo sapiens with 6 samples.

Results

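Replication-dependent histone genes supply the core and linker histones that package newly copied DNA. In these data they were defined by symbol as the protein-coding H1-1 to H1-6, H2AC, H2BC, H3C and H4C genes, and 69 such genes were quantified among 34834 genes. They comprised 6 H1, 17 H2A, 18 H2B, 13 H3 and 15 H4 genes. In the GRCh38 annotation, 55 lie in the HIST1 cluster on chromosome 6, 11 in HIST2 and 2 in HIST3 on chromosome 1, and 1, H4C16, on chromosome 12. All 69 have a single-exon canonical transcript. The samples were SKOV3 cells, an ovarian cancer cell line, 3 transfected with an siRNA pool against the lncRNA DNM3OS and 3 with a non-targeting pool. Both pools were used at 50 nM with a Lipofectamine reagent, RNA was taken at 48 h, and the DNM3OS pool held 4 siRNAs. Libraries were stranded total RNA depleted of ribosomal RNA, so mRNA without a poly(A) tail was retained. The comparison asked which genes differ in level when DNM3OS is reduced.

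Histone mRNAs of this kind are transcribed mainly in S phase, carry no introns and end in a conserved stem-loop instead of a poly(A) tail. The stem-loop is bound by SLBP, and the primary transcript is cut downstream of it by a machinery that includes the U7 particle with LSM10 and LSM11. NPAT, a substrate of cyclin E and CDK2, drives their transcription from nuclear histone locus bodies.

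The stem-loop is shown first because it defines the RNA class to which all 69 genes were assigned by symbol alone. The pattern GGNNNTTNTNANNNCC, searched on the coding strand within 150 bases after the stop codon, occurred in 69 of 69 histone genes and in 43 of 19855 other coding genes (0.217%). Of those 43, 3 carried a histone symbol, namely H2AX, H3-4 and H3-7. The element began 23 to 68 bases after the stop codon (median 36), in the 3' untranslated region. It had 10 distinct sequences, of which the 4 most frequent are printed 5' to 3' with the loop bases in capitals.
H1-4: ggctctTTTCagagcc
H4C11: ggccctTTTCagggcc
H2BC12: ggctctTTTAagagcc
H4C14: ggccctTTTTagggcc
The H1-4 sequence lies at chr6:26157095-26157110 on the plus strand and was shared by 40 genes, none of them an H4 gene. The H4C11 sequence, at chr6:27824459-27824474 on the plus strand, was carried by 10 genes, all H4. The H2BC12 form occurred in 9 genes and the H4C14 form in 4, all H4. All 6 stem positions held A-T or G-C pairs in 67 of the 69 genes. The remaining pair of genes had T opposite G at 1 position each, which was not counted as a pair. Their sequences are printed with the loop in capitals.
H2AC11: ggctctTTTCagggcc
H2AC15: ggttctTTTCagagcc
Each of these sequences was carried by that gene alone. H2AC11 was measured at 24.9 TPM (transcripts per 1000000, normalized for transcript length) and H2AC15 at 16.2 TPM on average over the 6 samples.

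Promoters are shown because their motifs differ between the histone classes, whose summed levels are given by class. RefSeq (GRCh38.p14) gave 68 promoters for 64 of the 69 genes, each with 250 bases before and 50 after the transcription start. The TATA box, searched as TATAAA on the coding strand, occurred in 57.4% of histone promoters and 7.33% of all promoters. CCAAT, searched on both strands, occurred in 100% of H1, H2A, H2B and H3 promoters, in 23.1% of H4 promoters and in 34.61% of all. The octamer ATTTGCAT, bound by POU2F1 and its cofactors and searched on both strands, occurred in 68.8% of H2A and 75% of H2B promoters against 1.77% of all. AAACACA, an element of H1 promoters, occurred on either strand in 100% of H1 promoters and 5.64% of all. One promoter each of an H1, an H2B and an H4 gene is printed with these motifs in capitals, on the coding strand. They lie at chr6:26156079-26156378 for H1-4, chr6:27893175-27893474 for H2BC17 and chr6:27823842-27824141 for H4C11, each on the plus strand.
H1-4: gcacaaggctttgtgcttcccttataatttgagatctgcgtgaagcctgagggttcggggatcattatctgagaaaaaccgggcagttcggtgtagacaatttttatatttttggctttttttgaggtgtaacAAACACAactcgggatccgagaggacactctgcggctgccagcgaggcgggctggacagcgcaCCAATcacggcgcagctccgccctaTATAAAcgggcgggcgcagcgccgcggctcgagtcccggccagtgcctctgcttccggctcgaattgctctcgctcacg
H2BC17: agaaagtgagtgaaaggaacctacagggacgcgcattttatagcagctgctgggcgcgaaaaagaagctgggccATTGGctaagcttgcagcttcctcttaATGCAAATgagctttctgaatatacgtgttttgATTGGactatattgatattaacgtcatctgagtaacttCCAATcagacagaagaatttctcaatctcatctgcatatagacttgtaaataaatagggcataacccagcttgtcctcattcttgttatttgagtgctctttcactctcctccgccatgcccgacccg
H4C11: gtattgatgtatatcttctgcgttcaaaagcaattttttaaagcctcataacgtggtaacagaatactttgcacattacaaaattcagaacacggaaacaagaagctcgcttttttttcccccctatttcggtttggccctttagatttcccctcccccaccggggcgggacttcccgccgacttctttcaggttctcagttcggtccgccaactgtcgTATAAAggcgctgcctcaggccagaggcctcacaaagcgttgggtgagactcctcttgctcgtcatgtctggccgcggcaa
Counted from the transcription start, the first base of the H1-4 TATAAA is at -29, of its CCAAT at -54 and of its AAACACA at -117. In H2BC17 the octamer, here read as ATGCAAAT, is at -149, and CCAAT occurs at -78 and, as ATTGG, at -116 and -176. H4C11 has TATAAA at -31 and no CCAAT in this window.

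The 6 libraries held 1523156 to 1868461 estimated counts on genes, so that 3 counts corresponded to 1.61 to 1.97 per 1000000 counts on genes. CPM (counts per 1000000), here and below, are on library sizes scaled by the trimmed mean of M-values (TMM). On that scale 3 counts corresponded to 1.40 CPM in knockdown sample 1 and to 2.11 CPM in knockdown sample 3. None of the 6 annotated DNM3OS transcripts was among the transcripts quantified, and the extent of the knockdown was not measured by these values. The epithelial marker KRT8 stood at 782 to 1801 CPM and ERBB2 at 145 to 497 CPM, whereas KRT7 stood at 2.35 to 8.42 CPM. Of the ovarian carcinoma markers, PAX8 stood at 12.1 to 26.2 CPM, and MSLN, WT1 and MUC16 stayed at or below 2.28 CPM. EPCAM stood at 8.84 to 19.6 CPM. CD14 was at 0 and CD3E at most 1.14 CPM, although PTPRC was listed at 51.8 to 82.1 CPM. The 77 cytosolic ribosomal protein genes together held 0.190% to 0.510% of the counts on genes, whereas PLLP alone held 15.7% to 22.2%. The strand setting of the quantification is not given in the sources used here, and whether reads were counted on the opposite strand was not tested.

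The 69 histone genes together held 0.177%, 0.321% and 0.414% of the counts on genes in DNM3OS knockdown samples 1 to 3, and 0.403%, 0.259% and 0.376% in control samples 1 to 3. Both groups thus held a low sample, and their ranges overlapped. Counts were found for 65 genes, while H2AC1, H2BC1, H4C7 and H4C12 had 0 counts in all 6 samples. H2AC1 and H2BC1, which form a divergent pair 215 bases apart, encode the testis histones of their classes. H1-6, the testis linker histone, averaged 1.82 TPM.

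Levels between genes were compared as TPM, summed over the transcripts of a gene and averaged over the 6 samples. Among the 65 genes with counts they ran from 0.843 TPM for H4C6 to 2497 TPM for H1-4, and the median over all 69 genes was 42.3 TPM. H1-4 and H1-2, linker histones of somatic cells, were at 2497 and 492 TPM. Each reached more than the most abundant H4 gene, H4C11, at 280 TPM, and the most abundant H2A gene, H2AC19, at 215 TPM. H2BC15, a core histone gene of HIST1, ranked second at 1125 TPM, and H3C2 led the H3 genes at 156 TPM. H1-4 and H2BC15 together took 64.7% of all histone counts, with 26.8% on H1-4 and 37.9% on H2BC15. On the length-normalized scale H1-4 took 31.6% of histone TPM and H2BC15 14.2%.

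**Figure D1:**
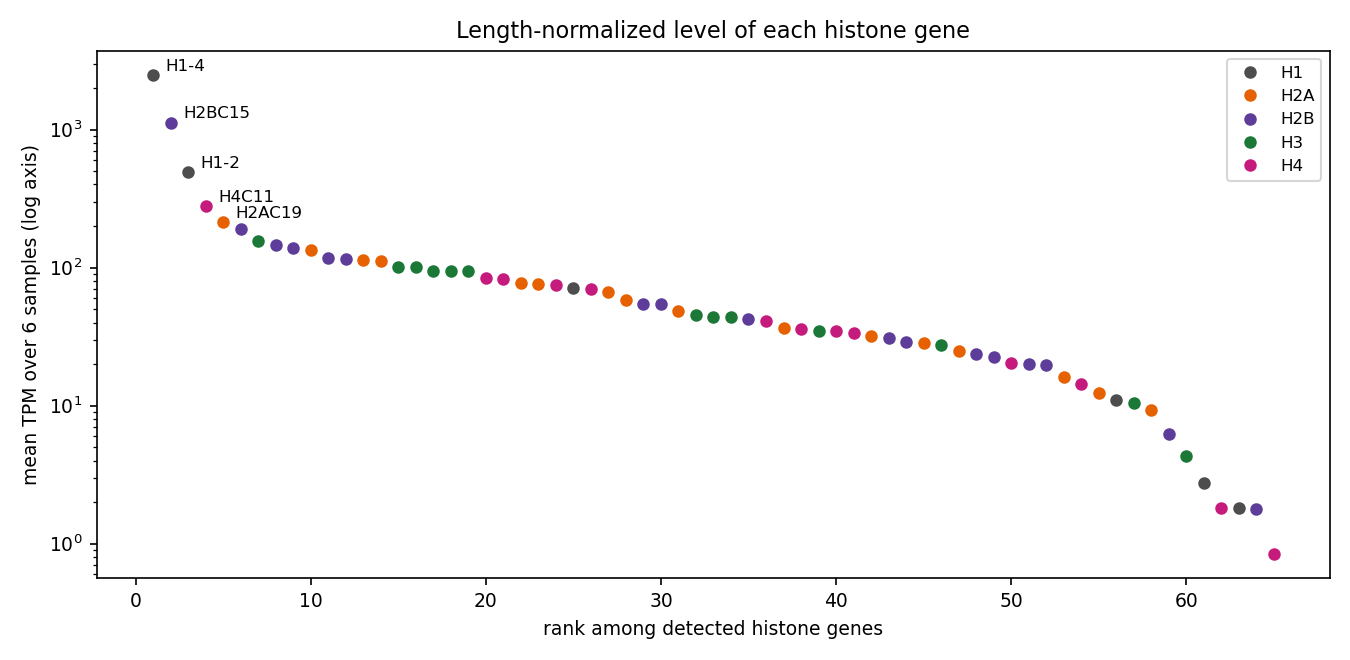
Mean TPM over the 6 samples (log axis) of each of the 65 histone genes with counts, ranked from the highest, with 1 point per gene coloured by class. H1-4 at 2497 TPM and H2BC15 at 1125 TPM stand above the other genes, and the lowest, H4C6, is at 0.843 TPM.

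These levels depend on the transcript model that the authors quantified, which often differed from GENCODE release 44. For 40 genes the quantified transcript consisted of the coding region alone, so reads from the untranslated regions and the stem-loop had no place in it. H1-4 was such a gene, with 660 bases quantified against 787 annotated. For 18 genes the model was longer than the annotated one, and H2BC15 was among them, with 1723 bases against 542. H4C9 likewise was quantified over 1294 bases against 397, and its 58.9 and 62.3 mean CPM in knockdown and control made 74.4 TPM. H4C11, quantified over 373 bases, had fewer counts than H4C9 but 280 TPM. Exons of another gene lie on the opposite strand at 5 histone genes, H2AC21, H2BC4, H2BC6, H2BC18 and H4C8. Of these, 3 were tested, with a median log2 fold change (knockdown over control) of -0.85, against -0.55 for the 45 tested among the other 64 genes. The summed levels of both sets overlapped between groups.

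Of the 69 genes, 48 passed the filter on low counts and were tested with edgeR's exact test. Another 17 had counts but fell below the filter, with at most 46.0 counts in any sample. No histone gene was called at 2-fold and an adjusted p below 0.05, neither lower (0.00846% of all 11814 tested genes) nor higher (0% of all). The adjusted p of edgeR's exact test was 1 for all 48. At an unadjusted p below 0.05, the exact test found 3 histone genes lower and 0 higher, against 1.91% and 1.01% of all tested genes. The quasi-likelihood test of edgeR also gave 3 and 0 (1.85% and 1.07% of all), and DESeq2 gave 4 and 0 (1.35% and 0.279% of all). The 3 genes of the exact test were H3C1, H4C3 and H2AC6.

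Fitted log2 fold changes, given throughout as knockdown over control, were below 0 for 43 of the 48 genes, against 49.4% of all tested genes. Their median was -0.56, with quartiles of -0.91 and -0.21, whereas the median of all tested genes was 0.0042. A decrease of 1 or more on the log2 scale was fitted for 7 histone genes and for 1.48% of all genes. The standard error given beside a log2 fold change, taken from the samples' log2 CPM and not from the fit, was also larger for histone genes. Its median was 0.83 against 0.27 over all tested genes. Only 1 gene, H3C1, had all 3 knockdown samples below all 3 controls (3.56% of all tested genes), and 0 had them above (4.42%). The share of genes without overlap was therefore not above that of all genes, while the share with a fitted decrease was. That share was not particular to histone genes. Of 74 tested ribosomal protein genes, 72 had a fitted decrease, with a median of -0.61.

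**Figure D2:**
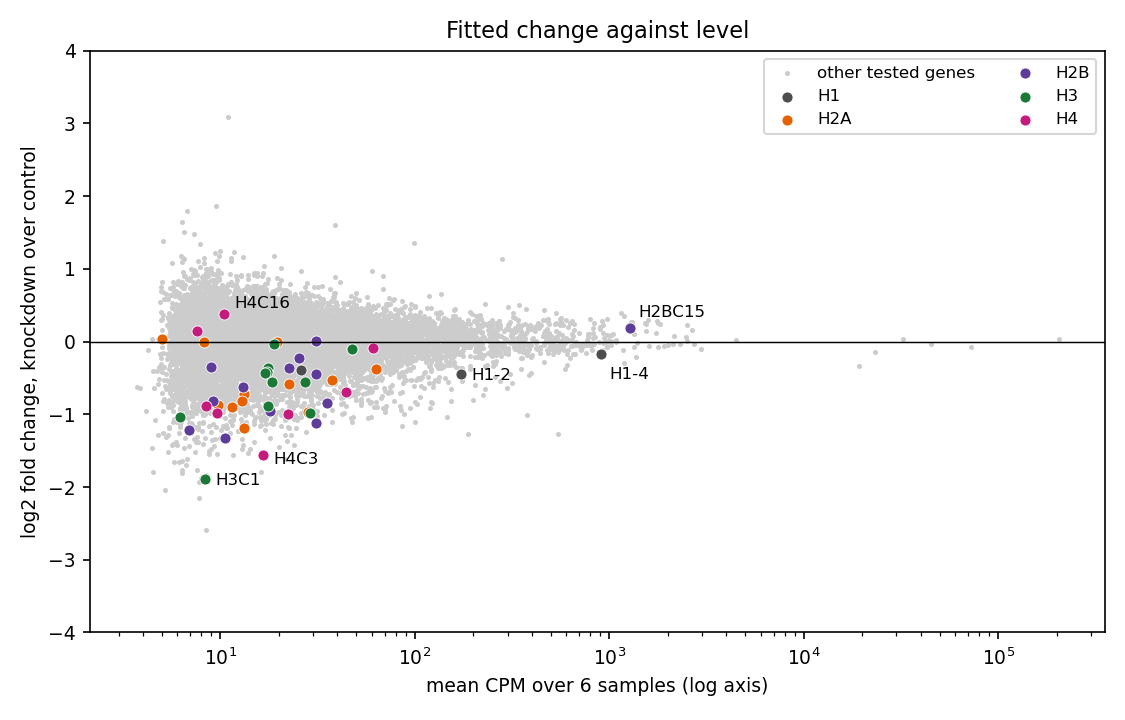
Fitted log2 fold change, knockdown over control, of each tested gene against its mean CPM over the 6 samples (log axis), with the 48 tested histone genes coloured by class and other genes in grey. Of the histone points, 43 lie below 0 and H3C1 is the lowest at -1.89.

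The order of the samples was similar from gene to gene. Knockdown sample 1 was the lowest of the 6 in 43 of the 48 genes, against 29.8% of all tested genes. Control sample 2 was below the other four in 38 of the 48, against 26.4% of all. Control sample 1 was the highest in 28 genes, knockdown sample 3 in 13, control sample 3 in 6 and knockdown sample 2 in 1. The summed CPM was 1540, 3518 and 4546 in the knockdown and 4183, 2587 and 3890 in the control. The log2 ratio, here and below the difference between the group means of the log2 sums, was -0.26. It was smaller than the spread between samples of a group, and the groups overlapped.

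**Figure D3:**
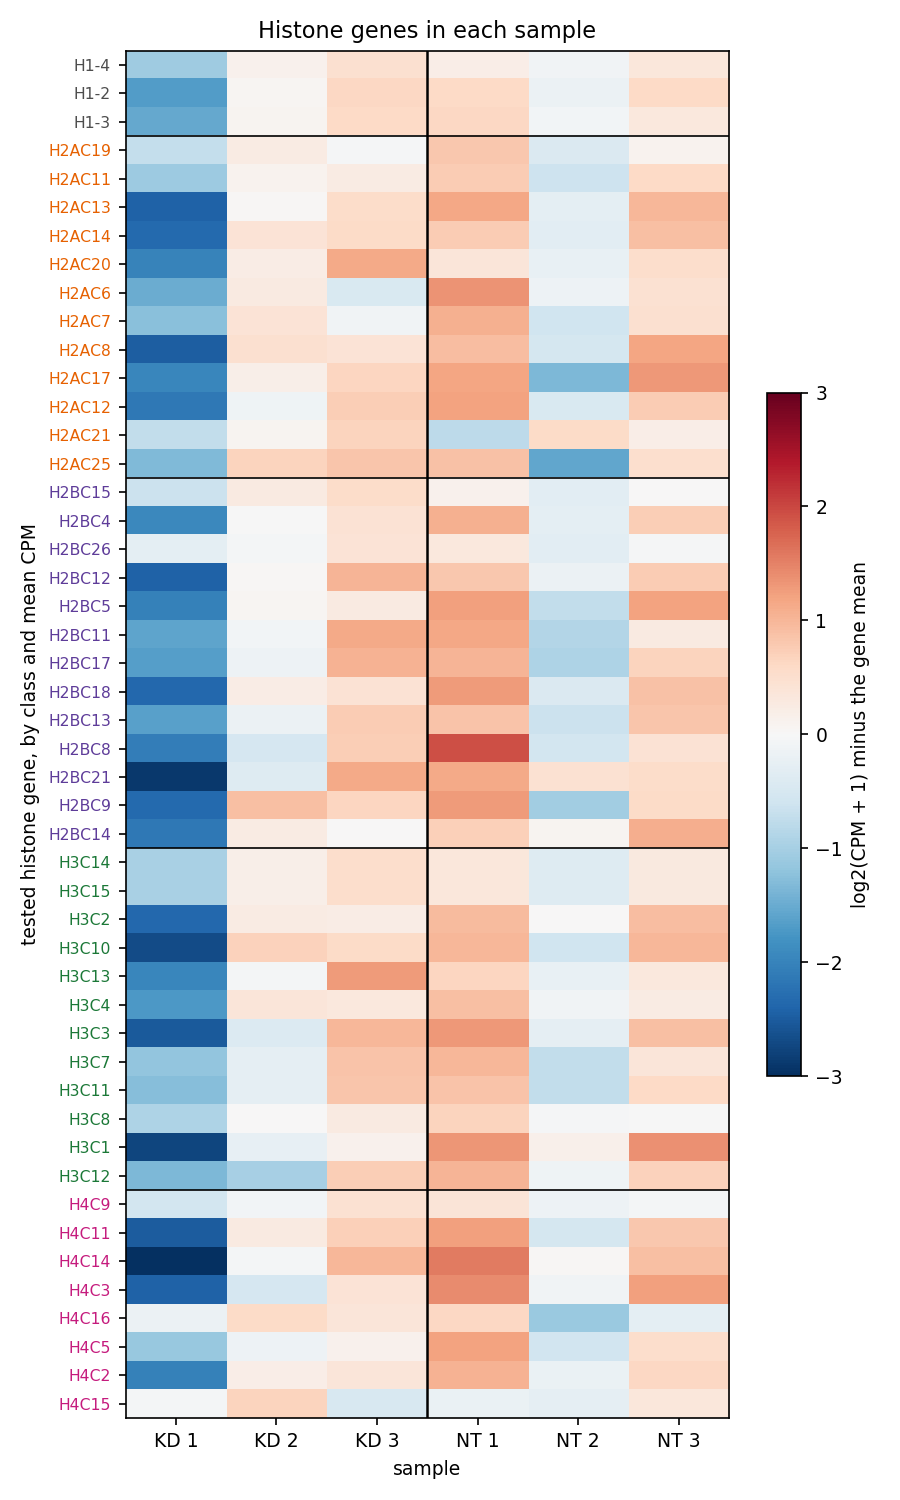
Each row is 1 of the 48 tested histone genes, grouped by class and ordered by mean CPM, and each column a sample (KD, DNM3OS knockdown; NT, non-targeting control). Colour gives log2(CPM + 1) minus the mean of that gene over the 6 samples, and knockdown sample 1 is the lowest in 43 rows.

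Ribosomal protein genes, another group of abundant mRNAs, stood in nearly the same order across samples. Their summed CPM was 1647, 3830 and 3997 in the knockdown and 5290, 2849 and 5075 in the control. Without H1-4 and H2BC15, the other 67 histone genes summed to 345, 1083 and 1527 CPM in the knockdown and to 1854, 796 and 1543 in the control. Both sums ran from knockdown sample 1 through control sample 2 and knockdown samples 2 and 3 to control samples 3 and 1. The 67 genes ranged over 5.38-fold between the lowest and the highest sample and the ribosomal protein genes over 3.21-fold. By contrast, the 13 mitochondrially encoded genes, transcribed outside the nucleus, ranged from 3377 to 4532 CPM, or 1.34-fold. The part of this sample order in the histone values was not tested. Per 100 counts on ribosomal protein genes there were 93.5, 91.9 and 114 histone counts in the knockdown and 79.1, 90.8 and 76.7 in the control. On that scale all 3 knockdown samples of the total were above all 3 controls, the closest being 91.9 and 90.8. So were those of H2BC15, at 47.7, 39.0 and 45.3 against 25.4, 34.7 and 24.7 per 100. With libraries scaled in this way, 5.24% of all tested genes had all knockdown samples above all controls. The median log2 fold change of all tested genes was then 0.60, so most genes moved upward on this scale. The other 67 genes overlapped, with 20.9, 28.3 and 38.2 in the knockdown against 35.0, 27.9 and 30.4 in the control. H1-4 overlapped too, with 24.9, 24.6 and 30.2 against 18.6, 28.2 and 21.6.

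**Figure D4:**
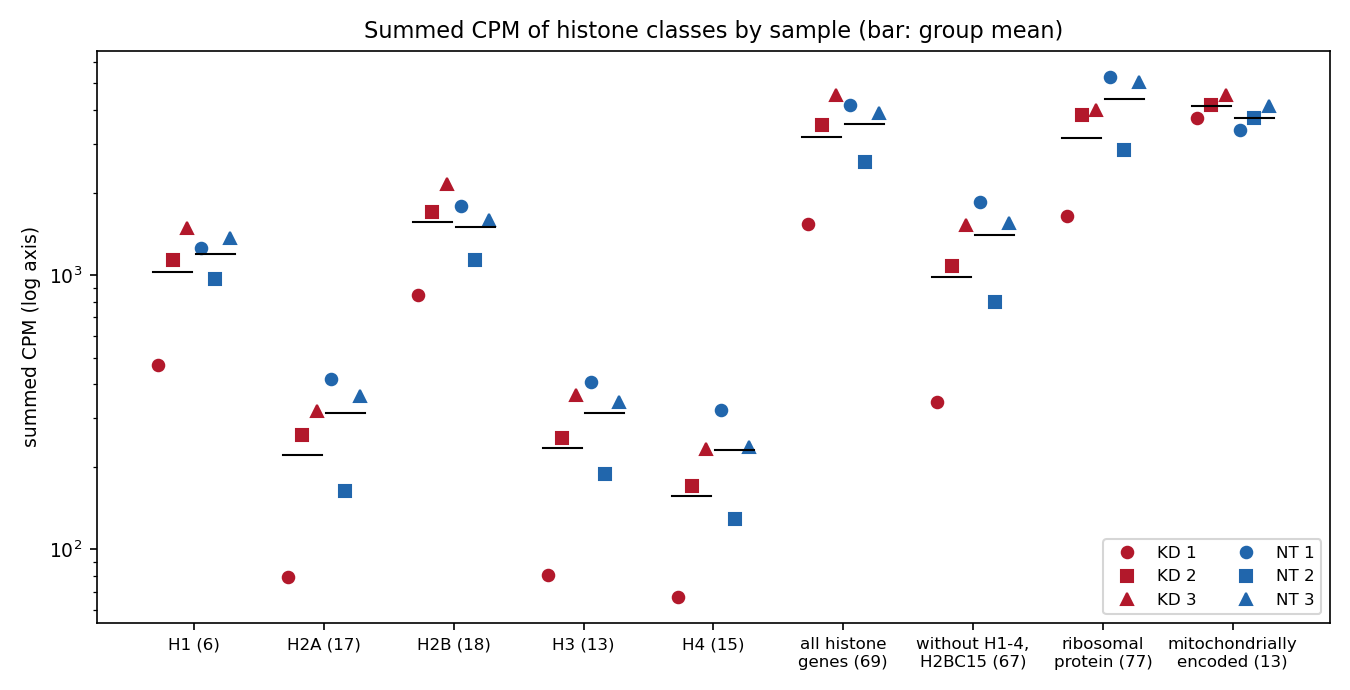
Summed CPM (log axis) of each histone class, of all histone genes with and without H1-4 and H2BC15, of ribosomal protein genes and of mitochondrially encoded genes, with the number of genes in parentheses, 1 point per sample and a bar at each group mean. Knockdown sample 1 is the lowest point for every histone class and for ribosomal protein genes, whereas the mitochondrially encoded genes lie between 3377 and 4532.

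Among the linker histones, H1-4 (ENSG00000168298, chr6:26156329-26157115) was measured at 410, 943 and 1209 CPM in the knockdown and 985, 803 and 1095 CPM in the control. Knockdown sample 1 was low, and the other knockdown samples lay within or above the control range. The log2 fold change was -0.17 (SE 0.49, n = 3 per group, adjusted p = 1 in the exact test of edgeR). H1-2, also a linker histone of somatic cells, had 47.0, 158 and 234 CPM against 231, 136 and 231 CPM. Its log2 fold change was -0.45 (SE 0.73), and the groups overlapped. Leaving H1-4 out, the H1 genes summed to 174 ± 110 CPM (SD, n = 3) in the knockdown and to 236 ± 59.6 CPM (SD, n = 3) in the control. All 3 tested H1 genes had a fitted decrease, while H1-1, H1-5 and H1-6 were below the filter.

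H2A genes, whose products pair with H2B on the surface of the nucleosome, summed to 79.1, 261 and 320 CPM in the knockdown and 417, 163 and 362 CPM in the control. The ranges overlapped, and 11 of 12 tested genes had a fitted decrease with a median of -0.65. H2AC6 (chr6:26124145-26139116), the H2A gene with the largest fitted decrease, was at 3.26, 13.5 and 7.72 CPM against 29.6, 9.82 and 15.3 CPM. Knockdown sample 2 lay above control sample 2, so the groups overlapped. Its log2 fold change was -1.19 (SE 0.66, unadjusted p = 0.036 in the exact test of edgeR, adjusted p = 1). H2AC14 had 2.79, 24.3 and 27.4 CPM against 31.3, 14.4 and 34.7 CPM and a log2 fold change of -0.58 (SE 0.996). H2AC25, in HIST3, had the only fitted increase among H2A genes, at 0.03 (SE 0.98), with 0.930, 6.75 and 7.72 CPM against 7.97, 0.655 and 5.88 CPM.

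Among H2B genes, H2BC15 (ENSG00000233822, chr6:27838545-27855709) was the gene with the most histone counts. It was measured at 785, 1492 and 1810 CPM in the knockdown and 1344, 988 and 1252 CPM in the control. Unlike most histone genes it was highest in knockdown sample 3, and its log2 fold change was 0.19 (SE 0.39, adjusted p = 1 in the exact test of edgeR). Its main transcript held 98.6% of its counts. The other 17 H2B genes summed to 60.5, 209 and 336 CPM against 435, 149 and 334 CPM, and 11 of the 12 tested had a fitted decrease.

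Among the other H2B genes, H2BC5, H2BC8 and H2BC14 had fitted decreases of over 1 on the log2 scale, and each was lowest in knockdown sample 1. H2BC5 had 5.12, 24.99 and 28.8 CPM in the knockdown and 57.5, 13.7 and 55.9 CPM in the control, with a log2 fold change of -1.13 (SE 0.97). H2BC8 had 0.930, 4.73 and 12.6 CPM against 30.2, 4.58 and 10 CPM, with -1.32 (SE 1.06). H2BC14 had 0.465, 6.75 and 5.61 CPM against 9.68, 5.89 and 12.9 CPM, with -1.22 (SE 0.78). In each of the 3 genes control sample 2 was the lowest control and was exceeded by at least 1 knockdown sample. H2BC4 had 6.98, 29.0 and 40.0 CPM against 62.7, 23.6 and 49.4 CPM, and a log2 fold change of -0.85 (SE 0.83). The more abundant H2BC12, H2BC11 and H2BC17 had log2 fold changes of -0.45, -0.22 and -0.36, with SE 1.06, 0.97 and 0.97. Their knockdown samples ran from 3.72 to 50.5 CPM, from 6.05 to 45.6 CPM and from 5.12 to 38.6 CPM, which spanned or nearly spanned the control ranges of 21.6 to 43.3, 10.5 to 46.1 and 9.17 to 37.6 CPM. H2BC26, in HIST3, had the smallest standard error of the 48 genes, 0.27, with 24.7, 29.0 and 40.7 CPM against 38.2, 24.2 and 30 CPM and a log2 fold change of 0.01.

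Of the H3 genes, which encode the replication-coupled H3.1 and H3.2 proteins, all 12 tested had a fitted decrease, with a median of -0.49. H3C1 (ENSG00000275714, chr6:26020451-26020958) had 0, 4.73 and 6.32 CPM in the knockdown and 15.9, 6.55 and 16.5 CPM in the control. The highest knockdown and the lowest control sample were separated by less than 1 count's worth of CPM at the depth of either library, the underlying estimates being 9 and 10 counts. The log2 fold change of -1.89 (SE 0.92) was the largest fitted decrease of the 48 genes, with an unadjusted p of 0.0065 and an adjusted p of 1 in the exact test of edgeR. In the exact permutation test the p was 0.1, the smallest that the 20 assignments of 3 against 3 samples allow. The annotated H3C1 transcript shared no 31-base stretch with another gene. H3C2 had 3.72, 27.7 and 27.4 CPM against 46.1, 23.6 and 44.7 CPM, with a log2 fold change of -0.98 (SE 0.90). H3C12 had 1.40, 2.03 and 9.12 CPM against 11.4, 4.58 and 8.82 CPM, with -1.04 (SE 0.70), and 62.6% of its counts lay on a transcript without a defined coding region.

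The H4 genes encode the core histone that pairs with H3. They summed to 66.98, 170 and 232 CPM in the knockdown and 322, 129 and 237 CPM in the control, and 6 of the 8 tested had a fitted decrease. H4C3 (ENSG00000197061, chr6:26103933-26104337) had 1.40, 8.10 and 16.1 CPM against 33.6, 11.1 and 29.4 CPM. Knockdown sample 3 exceeded control sample 2, so the groups overlapped. Its log2 fold change was -1.56 (SE 0.94, unadjusted p = 0.020 in the exact test of edgeR, adjusted p = 1). H4C11, the most abundant H4 gene per length, had 5.12, 40.5 and 56.1 CPM against 80.3, 22.9 and 60.0 CPM, with -0.69 (SE 1.13). H4C16, alone on chromosome 12, had the largest fitted increase of the 48 genes, 0.38 (SE 0.54), with 8.37, 14.9 and 12.6 CPM against 15.4, 3.93 and 7.65 CPM. Of its counts, 53.5% lay on a transcript without a defined coding region and 40.4% on the main coding one.

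By cluster, 34 of 35 tested HIST1 genes and 9 of 10 tested HIST2 genes had a fitted decrease. The medians were -0.69 in HIST1 and -0.10 in HIST2. Both tested HIST3 genes had a fitted increase, with a median of 0.02. In all 4 clusters the sums overlapped between groups. The difference between clusters was not tested.

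Near-identical copies limited what single genes could show. The coding regions of H2AC18 and H2AC19, of H3C14 and H3C15, of H4C11 and H4C12 and of H4C14 and H4C15 were identical, so the authors' counts between them are uncertain. Sharing of 31-base stretches was counted in the GENCODE release 44 sequence of the main transcript of each gene. Over all 69 genes a median of 9.9% of these stretches occurred in another gene, with 9 genes sharing none and 15 sharing over 50%. The transcript models that the authors quantified often differed from these sequences, and sharing within those models was not measured. H3C14 and H3C15 were listed with the same estimate in every sample, 22.3, 50.7 and 64.6 CPM each in the knockdown and 57.0, 34.0 and 55.3 CPM in the control, with a log2 fold change of -0.10 (SE 0.51). H4C12 was listed at 0, and all counts of that pair stood on H4C11. H2AC19 had 35.8, 70.9 and 58.2 CPM against 105, 43.9 and 63.5 CPM, a log2 fold change of -0.37 (SE 0.46). Its copy H2AC18, which stayed below the filter, had 0, 0 and 32.3 CPM against 0.570, 0 and 17.1 CPM, so that the split between them changed from sample to sample. Summed, they gave 35.8, 70.9 and 90.5 CPM against 105, 43.9 and 80.6 CPM, and a log2 ratio of -0.23.

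H4C14 had 0.465, 14.2 and 30.2 CPM in the knockdown and 45.6, 15.1 and 28.2 CPM in the control, with the largest standard error of the 48 genes (log2 fold change -0.9997, SE 1.35). H4C15 had 6.98, 12.2 and 4.91 CPM against 6.27, 5.89 and 9.41 CPM and a log2 fold change of 0.14 (SE 0.38). Together the copies had 7.44, 26.3 and 35.1 CPM against 51.8, 20.9 and 37.7 CPM, a log2 ratio of -0.86 in which the groups overlapped. H2BC18 had 1.86, 16.2 and 18.9 CPM against 34.7, 9.82 and 25.9 CPM and a log2 fold change of -0.95 (SE 1.01). Its counts were divided between a transcript without a defined coding region (49.1%) and the main coding one (43.97%). Of the 31-base stretches of the former, 83.1% occurred in another gene.

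Many H2A and H2B genes form divergent pairs that share a promoter region, and 12 such pairs lay 170 to 251 bases apart. The H2B gene had the higher TPM in 6 of the 12. In 9 pairs both genes were tested, and in 8 of them both had a fitted decrease. The gap between the 2 log2 fold changes of a pair had a median of 0.43 and reached 0.80, for H2AC20 (-0.01) and H2BC21 (-0.81). In the pair H2AC15 and H2BC15, the H2B gene was at 1125 TPM and the H2A gene at 16.2 TPM. H2AC15 was not tested. Its values of 1.40, 1.35 and 2.11 CPM in the knockdown lay below 3.42, 3.93 and 4.12 CPM in the control. The estimates behind them were only 3, 2 and 3 counts in the knockdown and 6.35, 6 and 7 counts in the control. H4C4, likewise untested, had 0, 0.675 and 1.40 CPM against 5.13, 1.96 and 4.71 CPM. Without the low-count filter, 3 histone genes had all knockdown samples below all controls (3.17% of all genes with counts).

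The genes that make, process and deposit histones were taken from 4 gene lists. Of 20 genes for histone mRNA transcription, processing and decay, 18 were tested and 0 were called by the exact test of edgeR. In that test 0 reached an unadjusted p below 0.05 (1.91% of all tested genes lower, 1.01% higher). Of these 18, 9 had a fitted decrease and 9 an increase, with a median of -0.02. SLBP, the stem-loop binding protein, had 4.65, 14.2 and 19.6 CPM against 18.2, 8.51 and 21.8 CPM, with a log2 fold change of -0.37 (SE 0.67). Its lowest samples were thus knockdown sample 1 and control sample 2, as for the histone genes. NPAT had 35.4, 47.3 and 49.8 CPM against 32.5, 34.0 and 38.8 CPM, with 0.32 (SE 0.17), and LSM11 had 23.3, 27.0 and 26.0 CPM against 19.4, 19.6 and 23.5 CPM, with 0.28 (SE 0.11). In both, 1 control sample lay above the lowest knockdown sample. LSM10 was below the filter at 1.86 to 4.91 CPM. ZNF473, a component of the U7-dependent processing complex, was the 1 member of the list without overlap (3.56% of all tested genes). It had 13.5, 8.78 and 16.1 CPM against 22.2, 17.7 and 17.6 CPM. Its log2 fold change was -0.58 (SE 0.26, adjusted p = 1 in the exact test of edgeR).

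Histone variants such as H2AZ1 and H3-3A can be deposited outside replication, and their genes form a separate list, of which H2AX and H3-4 also carry the stem-loop motif. Of 21 listed, 18 were quantified and 9 tested, and all 9 had a fitted decrease, with a median of -0.44. None was called by edgeR's exact test, and 0 reached an unadjusted p below 0.05 (1.91% of all tested genes lower, 1.01% higher). CENPA, the centromeric H3 variant, and H2AJ fell below the filter. CENPA had 2.33, 4.05 and 0.702 CPM in the knockdown and 9.68, 5.89 and 5.88 CPM in the control. H2AJ had 2.33, 3.38 and 4.91 CPM against 8.54, 5.24 and 7.06 CPM, so that in both genes the groups did not overlap, without a test. Without the low-count filter, 3.17% of all genes with counts had all knockdown samples below all controls.

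Of 28 histone chaperone and import genes, 24 were tested, 15 with a fitted decrease and 9 with an increase, with a median of -0.15. None was called by the exact test of edgeR, 0 were lower at an unadjusted p below 0.05 (1.91% of all tested genes), and 3 had all knockdown samples below all controls (3.56% of all). ATRX, a remodeler that deposits H3.3 with DAXX, had 6.05, 18.2 and 17.5 CPM against 31.3, 19.6 and 21.8 CPM, with a log2 fold change of -0.83 (SE 0.51). SUPT16H, a subunit of the FACT complex, had 34.9, 56.7 and 59.6 CPM against 76.3, 60.9 and 67.1 CPM, with -0.45 (SE 0.26). DNAJC9, an H3-H4 chaperone, had 25.6, 31.1 and 35.1 CPM against 45.0, 35.4 and 41.8 CPM, with -0.43 (SE 0.16). The adjusted p of edgeR's exact test was 1 for all 24 genes.

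Of 29 S phase genes, 23 were tested, 17 with a fitted decrease and 6 with an increase, and the median was -0.24. Again 0 were called, and 1 was lower at an unadjusted p below 0.05 (1.91% of all tested genes). That gene was MCM6, a subunit of the replicative helicase, at 2.33, 6.08 and 2.11 CPM against 14.2, 7.86 and 12.9 CPM. Its log2 fold change was -1.76 (SE 0.44, adjusted p = 0.61 in the exact test of edgeR). RRM1, the large subunit of ribonucleotide reductase, had 10.2, 27.7 and 25.3 CPM against 37.0, 28.2 and 30 CPM, with -0.62 (SE 0.44). UHRF1, which couples DNA methylation to replication, had 23.3, 23.6 and 25.3 CPM against 34.2, 27.5 and 34.1 CPM, with -0.41 (SE 0.11). These 3 were the genes of the list with all knockdown samples below all controls (3.56% of all).

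The histone values depended on which samples were kept. The low-count filter was applied anew in each fit, so the number of tested histone genes differed from 48. It was 53 without knockdown sample 1, knockdown sample 2 or control sample 2. Without knockdown sample 3 it was 52, and without control sample 1 or 3 it was 47. Without knockdown sample 1 the median log2 fold change of the histone genes was -0.14, the log2 ratio of their sum turned to 0.21, and 2 genes were lower (1.33% of all) and 1 higher (1.51%) at an unadjusted p below 0.05 in the exact test. In that fit 1 gene had both knockdown samples below all controls (7.59% of all) and 1 had them above (10.5%). Without control sample 2 the median was -0.92, and 24 histone genes had all knockdown samples below both controls (15% of all tested genes). In that fit 16 were lower at an unadjusted p below 0.05 (5.32% of all). Without knockdown sample 3 the median was -1.17, with 6 genes free of overlap (8.64% of all) and 17 at an unadjusted p below 0.05 (3.7%). Without knockdown sample 2, 3 genes were free of overlap (8.85%) and 3 were lower at an unadjusted p below 0.05 (2.92%), and the median was -0.74. Leaving out control sample 1 or 3 gave medians of -0.31 and -0.43, with 1 gene each at an unadjusted p below 0.05 (0.566% and 1.05% of all). In each of these 6 fits 0 histone genes were called.

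Scaling the libraries to the ribosomal protein genes, a choice made after the data were seen, moved the median of all tested genes to 0.60 and that of the histone genes to -0.18. A fitted decrease was then found for 28 of the 48 genes, against 9.42% of all tested genes. The log2 ratio of the histone sum was 0.28. On this scale 3 histone genes had all knockdown samples below all controls (0.796% of all) and 4 had them above (5.24%), with 0 called. As the labels do not say that the samples are separate cultures, the p-values measure only the spread between these samples.

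**Figure D5:**
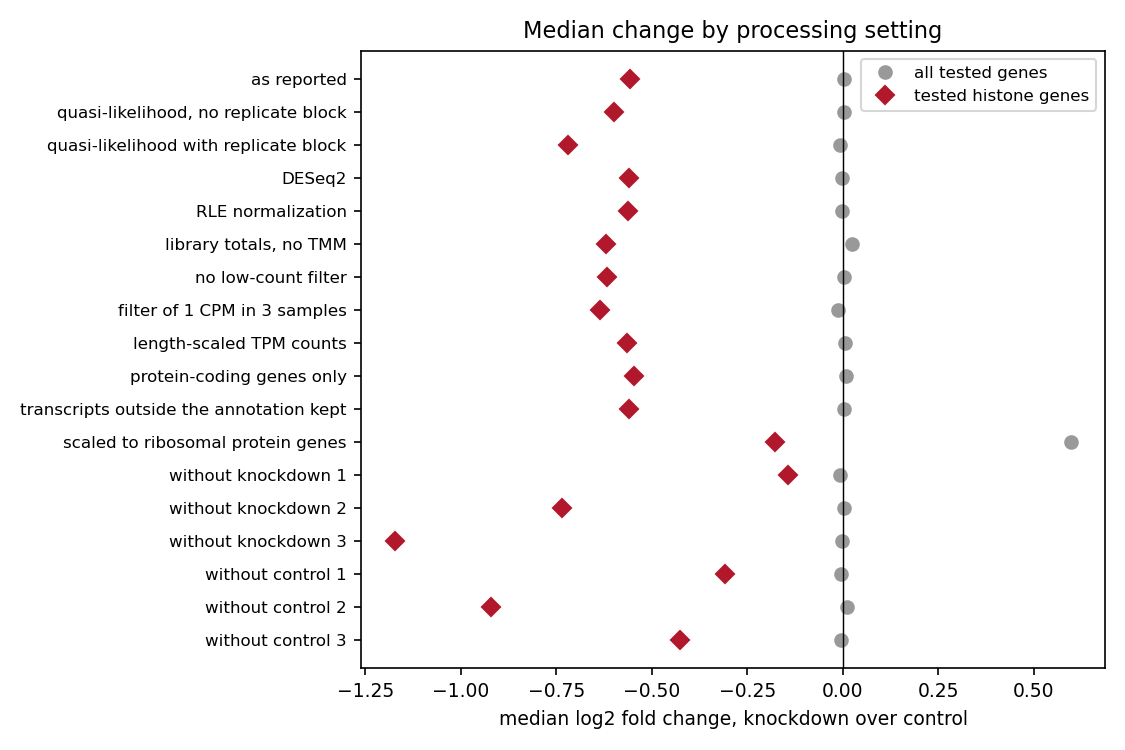
Median log2 fold change, knockdown over control, of the tested histone genes (diamonds) and of all tested genes (circles) as reported and under each alternative way of processing or with 1 sample left out. The histone median runs from -1.17 without knockdown sample 3 to -0.14 without knockdown sample 1, and scaling to ribosomal protein genes moves the median of all genes to 0.60.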

How the data were processed

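Total RNA of 6 SKOV3 samples was sequenced from stranded, rRNA-depleted libraries. Per the labels and the study's methods, the authors quantified reads with kallisto 0.43.0 on GRCh38 Ensembl transcripts and deposited an estimated count and a TPM per transcript. Strand option and bias correction are not given in the sources used here. Gene values are sums of these counts by GENCODE release 44 gene, rounded for testing. Of 173259 transcripts, 17741 were outside it and held 4.79% to 6.38% of counts. The totals were 1610937 to 1995888 per sample.

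Genes passing filterByExpr (minimum count 10) were TMM-normalized and compared by the exact test of edgeR 4.0.16 (R 4.3.3) with Benjamini-Hochberg adjustment over all 11814, at 2-fold and adjusted p below 0.05. The edgeR quasi-likelihood test and DESeq2 1.42.0 served as alternatives. Standard errors are those of the difference in mean log2 CPM with a prior count of 2, not of the fitted log2 fold change. Exact permutation tests were two-sided. Scripts were tested on simulated counts.

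Named genes were the 12 highest by TPM, the 5 largest decreases and increases, genes without overlap, identical copies and genes with divided transcripts. H2AC11, H2AC15, H2AC20, H2BC21, H4C4 and H4C9 were added after their values were seen. The members and lists were chosen with earlier results of these data known.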

Additional observations from a re-analysis of the deposited data

How the results depend on the processing

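No histone gene was called under any of 11 other settings or with any 1 sample left out. The count of genes with all knockdown samples below all controls was 1 as reported (3.56% of all genes). It was 3 with no low-count filter (3.17% of all) and 3 with a filter of 1 CPM in 3 samples (4% of all). Scaled to ribosomal protein genes it was 3 (0.796% of all), and with 1 sample left out 1 to 24 (6.02% to 15% of all). The count above all controls was 0 (4.42% of all). It was 4 when scaled to ribosomal protein genes (5.24% of all) and 0 to 1 with 1 sample left out (6.73% to 12.8% of all). The median log2 fold change stayed below 0 in every setting. Of 286 values for the 26 named genes, 277 kept their direction and 9 reversed. Scaled to ribosomal protein genes, H1-4 was at 0.22, H2AC19 at 0.20, H2BC11 at 0.21, H2BC17 at 0.075 and H3C14 and H3C15 at 0.36 each. H2AC25 was at -0.033 by the quasi-likelihood test and -0.022 without TMM, and H2BC26 at -0.0089 with length-scaled TPM counts. The cause was not tested.

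With 1 sample left out, 19 of 153 values reversed, and the log2 fold changes ran from -0.51 to 0.17 for H1-4, -0.62 to 0.017 for H2AC19, -0.48 to 0.56 for H2AC25, -1.15 to 0.39 for H2BC11, -1.36 to 0.082 for H2BC12, -0.071 to 0.48 for H2BC15, -1.29 to 0.11 for H2BC17, -0.21 to 0.19 for H2BC26, -0.44 to 0.25 for H3C14 and H3C15, and -0.24 to 0.38 for H4C15.

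Deviations of same-numbered samples from their group means correlated at -0.40, -0.34 and 0.23. With 3 samples per group, these values cannot settle whether same-numbered samples belong together. With the replicate number as a block, the quasi-likelihood test called 0 histone genes, with a median log2 fold change of -0.72, and 2 were lower at an unadjusted p below 0.05 (0.906% of all genes). The median tested histone gene had 29.5 counts per sample, while H1-4 and H2BC15, with the most counts, still had standard errors of 0.49 and 0.39 against a median of 0.27 over all genes. The part of depth in the spread was not tested.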
